A study of Mus musculus with 10 samples.

Results

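The genes described here are 8 regulators of mitochondrial biogenesis, the making of new mitochondria: Ppargc1a, Esrra, Nrf1, Tfam, Ppara, Ppard, Rxra and Prkaa2. They were chosen by symbol, and every probe set that the array annotation gives one of these symbols was taken. This gave 14 of the 22690 probe sets on the array, for 7 of the 8 genes: 5 for Ppargc1a, 3 for Nrf1, 2 for Rxra and 1 each for Esrra, Tfam, Ppara and Ppard. No probe set carried the symbol Prkaa2 in the annotation used, so its RNA is not analysed here. Of the 14 probe sets, 12 passed the filter on low signals. Nrf1 1420978_at and Ppard 1425703_at did not.

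The study asked whether the right ventricle of mice heterozygous for plakoglobin (Jup), a protein of the junctions between heart muscle cells, responds to endurance training as that of wildtype mice does. Right ventricles of 10 animals of strain 129SV were read, with 1 Affymetrix array for the total RNA of each. Trained plakoglobin (+/-) mice (n = 4) and trained wildtype mice (n = 4) were 6 months old, with 2 males and 2 females in each group, and swam in water of 35 °C for 5 min at first and 90 min at the end, 6 times per week. The untrained mice were 1 plakoglobin (+/-) female and 1 wildtype female, both 10 months old. Training and age therefore cannot be told apart. The labels name no driver that limits the plakoglobin (+/-) state to heart muscle. Replicate numbers are only names, and in the trained plakoglobin (+/-) group replicates 1 and 2 were male while in the trained wildtype group replicates 1 and 3 were male.

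Ppargc1a encodes PGC-1 alpha, a coactivator that binds no DNA itself but is recruited by transcription factors and switches on nuclear genes for mitochondrial proteins. Its partners include the orphan receptor ERR alpha (Esrra), nuclear respiratory factor 1 (Nrf1) and the fatty acid receptors PPAR alpha (Ppara) and PPAR delta (Ppard), which bind DNA together with the retinoid X receptor (Rxra). Tfam, a product of this programme, enters mitochondria, where it packs their DNA and starts its transcription, and Prkaa2 encodes a catalytic subunit of AMPK, the kinase that senses low energy and acts on PGC-1 alpha. In the heart, endurance exercise and fasting are classical settings in which this network has been studied.

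The promoters of 4 members are printed, Ppargc1a as the coactivator of the group and Esrra, Tfam and Ppara as the members whose windows held a searched core motif of NRF1 or GABP. Each is the stretch of 250 bases before the annotated start site, from RefSeq on mouse build GRCm38.p6, printed 5' to 3' on the strand of the gene with matches to the searched motifs in capitals. All 8 members had at least 1 such window, and Nrf1 and Rxra had 2, which makes 10 windows among 32851 in the table.
Ppargc1a, chr5:51567726-51567975, minus strand: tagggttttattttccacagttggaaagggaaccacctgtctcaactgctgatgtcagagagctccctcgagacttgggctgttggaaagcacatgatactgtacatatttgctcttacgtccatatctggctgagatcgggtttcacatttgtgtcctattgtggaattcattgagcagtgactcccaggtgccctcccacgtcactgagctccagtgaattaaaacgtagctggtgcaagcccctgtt
Esrra, chr19:6921809-6922058, minus strand: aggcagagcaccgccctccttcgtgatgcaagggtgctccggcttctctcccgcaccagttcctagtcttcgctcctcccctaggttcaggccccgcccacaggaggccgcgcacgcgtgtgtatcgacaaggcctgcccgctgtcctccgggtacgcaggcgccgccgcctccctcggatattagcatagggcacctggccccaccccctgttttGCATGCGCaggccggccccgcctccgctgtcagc
Tfam, chr10:71238045-71238294, minus strand: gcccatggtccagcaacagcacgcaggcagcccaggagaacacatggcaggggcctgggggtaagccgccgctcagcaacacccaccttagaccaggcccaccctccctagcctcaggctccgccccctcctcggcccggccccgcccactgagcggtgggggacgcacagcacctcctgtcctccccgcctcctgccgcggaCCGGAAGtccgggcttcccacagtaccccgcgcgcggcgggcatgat
Ppara, chr15:85735526-85735775, plus strand: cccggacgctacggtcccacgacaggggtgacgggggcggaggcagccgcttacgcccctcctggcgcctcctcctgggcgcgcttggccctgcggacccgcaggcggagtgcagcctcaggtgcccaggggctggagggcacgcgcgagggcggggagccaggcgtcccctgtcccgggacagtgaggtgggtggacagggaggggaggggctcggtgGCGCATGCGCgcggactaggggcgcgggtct

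Both strands were searched for 6 motifs: the core of the NRF1 site GCATGCGC, the half-site of ERR receptors TCAAGGTCA, the nuclear receptor half-site AGGTCA that it contains, the cyclic AMP response element TGACGTCA, the E-box CACGTG and the core of the GABP site CCGGAAG. The NRF1 core lay 34 to 27 bases before the start of Esrra. In the window of Ppara the same core was read on both strands, 31 to 24 and 29 to 22 bases before the start, and these matches overlap. Of all windows, 2.26% held this core, against 2 of the 10 windows of the members. The window of Tfam held the GABP core 47 to 41 bases before the start, as 6.91% of all windows do. The second window of Rxra held the nuclear receptor half-site, which 14.0% of all windows hold. The ERR half-site (0.387% of all windows), the cyclic AMP response element (1.55%) and the E-box (6.02%) were in no member window. The window of Ppargc1a held none of the 6 motifs, and its share of G and C was 48.0% against 68.4% for Esrra, 72.0% for Tfam and 76.4% for Ppara. A match is a run of letters and no evidence of binding.

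Values below are MAS5 signals on a linear scale, and differences are on the log2 scale of signals raised to a floor of 104. No untrained mouse was male and the training fit has a sex term, so its differences compare trained with untrained females. The trained males do not move these differences in the main fit, while means and ranges of trained mice include them. Probe sets bind with different strength, so levels are compared between mice and not between probe sets. On 3 arrays the GAPDH control probe sets gave a high ratio of 3' to 5' signal, which is raised when RNA or its labelled copies are shortened. The ratio was 2.98 for trained plakoglobin (+/-) replicate 1, and for the first 2 replicates of the trained wildtype group it was 2.50 and 17.8. The other 7 arrays lay at 0.849 to 1.02. The same ratio of the actin control probe sets was 2.65 for trained plakoglobin (+/-) replicate 1 and 3.05 for trained wildtype replicate 1. It was only 1.29 for trained wildtype replicate 2, the array with a GAPDH ratio of 17.8, against 0.932 to 1.24 on the other 7 arrays. The controls thus disagree on that array, and whether its RNA was shortened was not tested. The same array had the lowest median signal, 897.8, and the largest share of signals at the floor, 13%. Jup did not separate the labels array by array. It read 1991.7 to 3519.9 in trained plakoglobin (+/-) mice against 2928.3 to 4322.0 in trained wildtype mice, and 3156.9 in the untrained plakoglobin (+/-) mouse against 2386.8 in the untrained wildtype mouse, so genotypes are given as labelled. The trained means, 2526 ± 680.1 in plakoglobin (+/-) mice and 3613 ± 653.9 in wildtype mice (SD, n = 4 each), ran as the labels say, with a difference of -0.53 that did not pass (limma adjusted p = 1). Of the 6 cardiomyocyte markers all were among the tested probe sets, while of the 6 skeletal muscle markers none was. In bulk tissue, fewer cells of a type and less RNA per cell cannot be told apart.

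None of the 12 tested member probe sets passed the test in any comparison (limma, adjusted p under 0.05 over 13576 probe sets). Of all probe sets, 0.626% were called by training, 0% by genotype, 0.0516% by sex and 0% by the interaction of genotype with training. At an unadjusted p under 0.05, 1 of the 12 differed by training against 8.68% of all probe sets, and 0 of 12 by genotype against 2.01% of all. For the interaction the counts were 1 of 12 and 3.20% of all. By sex in trained mice, 4 of 12 had an unadjusted p under 0.05 against 8.82% of all, and all 4 belong to Ppargc1a. This 1 gene is read by 5 of the 12 probe sets in the same mice, so these 4 are not independent results. Counts and medians over the 12 weigh Ppargc1a most. The median difference of the 12 was 0.06 by training, 0.17 by genotype and -0.29 by sex, beside medians of -0.00218, 0.0108 and 0.00635 over all tested probe sets.

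The coactivator Ppargc1a did not pass by genotype at any of its 5 probe sets. Its signal was lower in trained males than in trained females at 4 of 5 probe sets by an unadjusted p under 0.05, and none of these passed the adjusted test. By 1456395_at it read 2729.3, 2794.3, 6596.7 and 4713.6 in trained plakoglobin (+/-) replicates 1 to 4, 2397.3, 3876.0, 2474.3 and 6643.3 in trained wildtype replicates 1 to 4, 5100.6 in the untrained plakoglobin (+/-) mouse and 4685.6 in the untrained wildtype mouse. The 4 males are the 4 lowest of the 10 mice, at 2397.3 to 2794.3, and all 6 females lay above them at 3876.0 to 6643.3. Trained males averaged 2599 ± 192.7 and trained females 5457 ± 1385 (SD, n = 4 each), a ratio of geometric means of 0.486. The log2 difference of -1.04 (SE 0.215, 95% interval -1.52 to -0.556) had an adjusted p of 0.265 by limma and did not pass.

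A second probe set, 1434099_at, gave 2718.3, 2022.2, 4120.9 and 3357.4 in trained plakoglobin (+/-) mice, 2680.3, 4594.1, 1509.7 and 3145.4 in trained wildtype mice, 3133.9 in the untrained plakoglobin (+/-) mouse and 2792.3 in the untrained wildtype mouse. Again all 6 females lay above the 4 males, but the untrained wildtype female, at 2792.3, was close to the highest male, at 2718.3. Trained males averaged 2233 ± 578.3 and trained females 3804 ± 672.8 (SD, n = 4 each), a difference of -0.79 (SE 0.245, 95% interval -1.34 to -0.245, limma adjusted p = 0.508). The companion probe set 1434100_x_at, designed on the same source sequence and so no independent reading, had 3226.4, 2026.2, 4271.5 and 3175.9 in trained plakoglobin (+/-) mice, 2804.3, 4100.5, 1293.1 and 3751.5 in trained wildtype mice, 2370.8 in the untrained plakoglobin (+/-) mouse and 2906.3 in the untrained wildtype mouse. Here the sexes overlapped, since the male at 3226.4 lay above the female at 3175.9, and the difference was -0.78 (SE 0.286, limma adjusted p = 0.509).

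The brightest Ppargc1a probe set, 1437751_at, read 3758.0, 6567.7, 7931.4 and 6779.3 in trained plakoglobin (+/-) mice, 4513.0, 7185.4, 5826.7 and 7559.9 in trained wildtype mice, 5883.2 in the untrained plakoglobin (+/-) mouse and 6982.8 in the untrained wildtype mouse. Trained males averaged 5166 ± 1266 and trained females 7364 ± 494.7 (SD, n = 4 each), with no overlap, and the difference was -0.54 (SE 0.208, 95% interval -1.01 to -0.077, limma adjusted p = 0.509). The untrained plakoglobin (+/-) female, at 5883.2, lay within the range of the trained males. The 2 males of lowest signal, 3758.0 and 4513.0, are also 2 of the 3 arrays of high GAPDH ratio. Without those 3 arrays the sex difference of 1437751_at was -0.25 (limma adjusted p = 0.711), while that of 1456395_at was -1.18 (0.109), that of 1434099_at -0.96 (0.226) and that of 1434100_x_at -1.15 (0.210).

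In two-sided exact permutation tests over the 8 trained mice (70 labelings, unadjusted, 14 probe sets tested), the sex difference had p = 0.0286, the smallest they can give, for 1434099_at, 1437751_at and 1456395_at. The exact permutation p was 0.0571 for 1434100_x_at and 0.343 for 1460336_at. Permuted within genotype, the first 3 had an exact p of 0.0556, the smallest that 36 labelings can give. Among the 12 tested member probe sets, 3 had all 4 trained males below all 4 trained females, where 2.91% of all tested probe sets did, and 0 had all males above, where 2.98% of all did. No genotype by sex term of a Ppargc1a probe set had an unadjusted p under 0.05, and no probe set was called for it. Markers of some cell types all ran the same way by sex. Those of endothelium and of fibroblasts were each split, with 3 higher and 3 lower in males. The summed signal of the 6 leukocyte markers was 26930 to 34970 in trained males against 17450 to 24420 in trained females, with 6 of 6 higher in males, and that of the 6 cardiomyocyte markers was 1051000 to 1242000 in trained males against 1121000 to 1379000 in trained females, with 6 of 6 lower in males. None of these markers was called, and their part in the Ppargc1a difference was not tested.

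**Figure D1:**
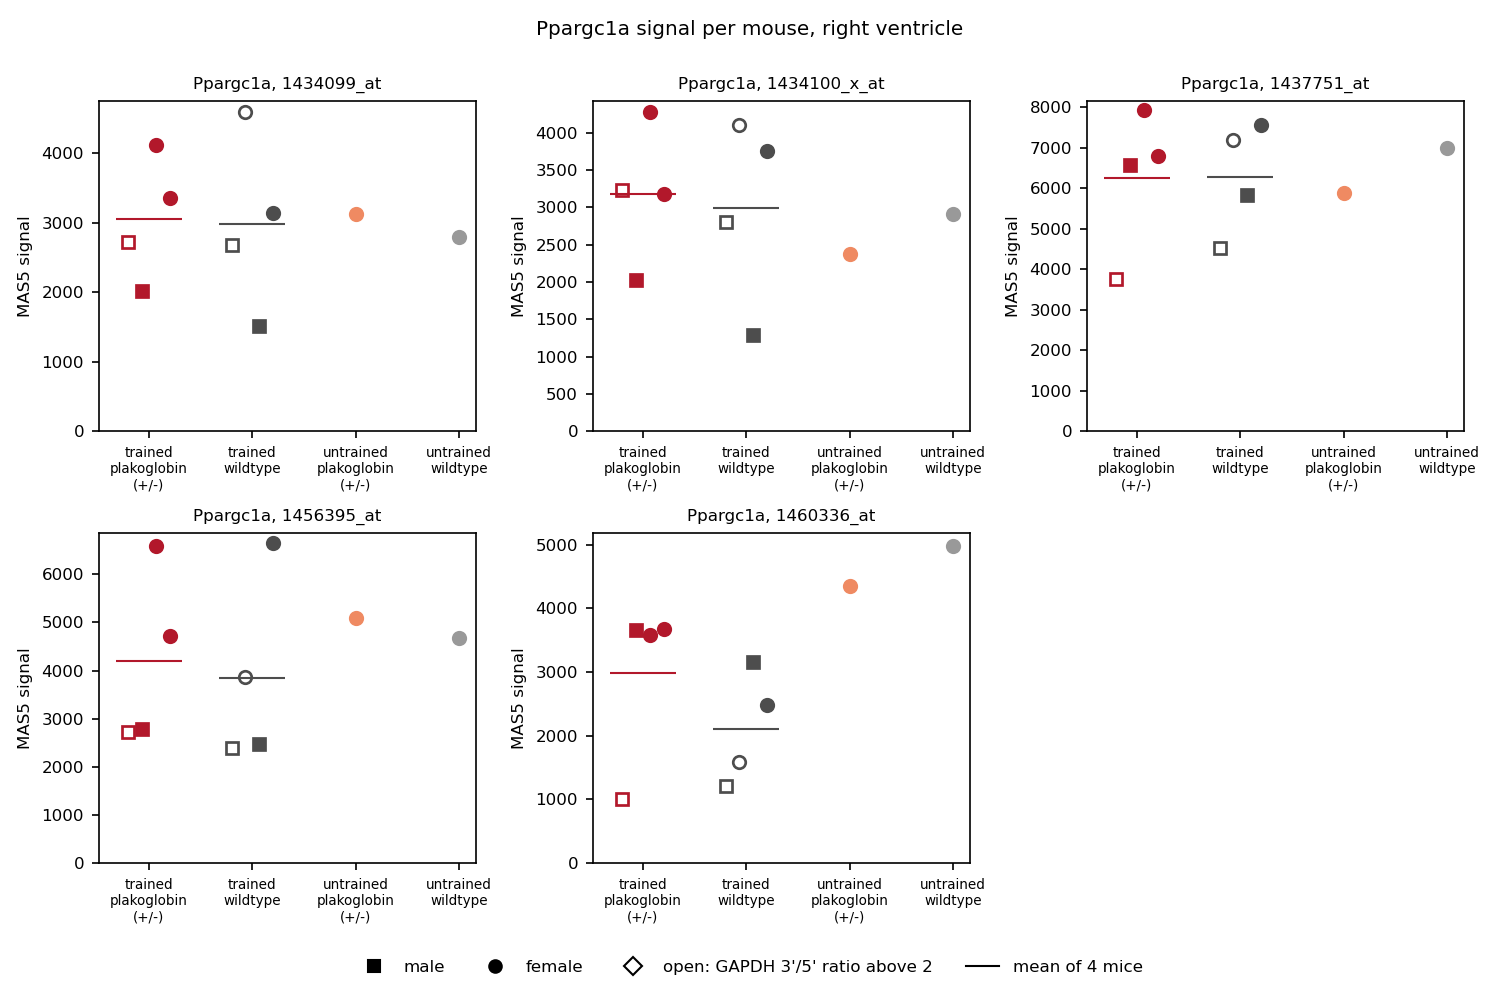
Signal of the 5 Ppargc1a probe sets in each of the 10 mice, by group, on a linear axis from 0, with sex and the arrays of high GAPDH ratio marked and group means as lines. For 1456395_at the 4 males lie at 2397.3 to 2794.3, below all 6 females, and for 1460336_at the trained mice lie under the 2 untrained mice.

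The fifth Ppargc1a probe set, 1460336_at, behaved unlike the other 4. It read 1010.6, 3653.9, 3585.9 and 3678.9 in trained plakoglobin (+/-) mice, 1210.1, 1583.2, 3157.4 and 2486.8 in trained wildtype mice, 4354.5 in the untrained plakoglobin (+/-) mouse and 4980.1 in the untrained wildtype mouse. Every trained mouse was lower than the untrained pair, and the 3 lowest, at 1010.6 to 1583.2, are the 3 arrays of high GAPDH ratio. The difference between trained and untrained mice was -0.79 (SE 0.521, 95% interval -1.94 to 0.352, limma adjusted p = 0.772), and -0.58 (0.271) without the 3 arrays. It was -0.49 without the untrained wildtype mouse and -1.10 without the untrained plakoglobin (+/-) mouse. The exact permutation test of 8 trained against 2 untrained mice gave p = 0.0444, the smallest of 45 labelings, unadjusted. The other 4 probe sets had training differences of 0.12 to 0.53 with limma adjusted p values of 0.756 to 0.953, so the probe sets of Ppargc1a disagree in sign. These 4 values carry the sex term of the fit: without it, 1434099_at, 1437751_at and 1456395_at turned, to -0.05, -0.07 and -0.40, since no untrained mouse was male.

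By genotype in trained mice, the 5 Ppargc1a probe sets differed by -0.03 to 0.42. By 1437751_at the mean was 6259 ± 1772 in trained plakoglobin (+/-) mice and 6271 ± 1389 in trained wildtype mice (SD, n = 4 each). By 1460336_at it was 2982 ± 1315 in trained plakoglobin (+/-) mice and 2109 ± 880.6 in trained wildtype mice. The groups overlapped at every probe set, and the limma adjusted p was 1 for each. The value of 0.42, for 1460336_at, moved with single mice: it was 0.88 without trained plakoglobin (+/-) replicate 1 (limma adjusted p = 0.807), the lowest of its group, and 0.14 without replicate 2.

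Esrra, the receptor ERR alpha, which induces genes of oxidative phosphorylation together with PGC-1 alpha, showed no difference beyond its spread. By 1460652_at it read 4742.6, 5056.0, 5543.1 and 6776.8 in trained plakoglobin (+/-) mice, 4393.5, 2887.4, 6462.2 and 6439.8 in trained wildtype mice, 6903.4 in the untrained plakoglobin (+/-) mouse and 5021.1 in the untrained wildtype mouse. The lowest 3 mice were again those of high GAPDH ratio. The genotype difference was 0.19 (limma adjusted p = 1), with means of 5530 ± 894.3 in trained plakoglobin (+/-) mice and 5046 ± 1735 in trained wildtype mice (SD, n = 4 each). That by training was -0.20 (SE 0.323, 95% interval -0.906 to 0.515, limma adjusted p = 0.934). Without the 3 arrays these values turned, to -0.19 by genotype and 0.08 by training.

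Nrf1, which binds promoters of respiratory chain genes and of Tfam, was read by 3 probe sets that did not follow each other. By 1424787_a_at it had 1374.7, 1134.6, 1159.1 and 1925.2 in trained plakoglobin (+/-) mice, 1764.2, 570.6, 1679.2 and 850.6 in trained wildtype mice, 1320.7 in the untrained plakoglobin (+/-) mouse and 1304.7 in the untrained wildtype mouse. Within the trained wildtype group the 2 males, at 1764.2 and 1679.2, were above the 2 females, at 570.6 and 850.6, and in the trained plakoglobin (+/-) group the sexes overlapped. Its genotype by sex term of -1.56 (SE 0.557) had an unadjusted limma p of 0.0213 and an adjusted p of 1. By 1434627_at it had 709.6, 1250.1, 999.1 and 1032.6 in trained plakoglobin (+/-) mice, 880.1, 966.6, 476.6 and 1065.1 in trained wildtype mice, 1221.7 in the untrained plakoglobin (+/-) mouse and 853.6 in the untrained wildtype mouse. Here the lowest mouse was trained wildtype replicate 3, one of the highest by the other probe set.

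The training differences of Nrf1 were -0.36 by 1424787_a_at and -0.01 by 1434627_at (limma adjusted p = 0.897 and 0.996), and those by genotype 0.32 and 0.27 (adjusted p = 1 for both). The training difference by 1424787_a_at was -0.09 without trained wildtype replicate 2 and -0.67 without trained plakoglobin (+/-) replicate 4. The third probe set, 1420978_at, gave low signals of 178.0, 178.0, 124.0 and 177.5 in trained plakoglobin (+/-) mice, 140.0, 117.5, 115.5 and 110.5 in trained wildtype mice, 64 in the untrained plakoglobin (+/-) mouse and 60 in the untrained wildtype mouse. All 8 trained mice were above both untrained mice, which lay below the floor, so the size of this gap is not measured. Its exact permutation p was 0.0444 by training and 0.0571 by genotype, unadjusted, and it was not in the limma fit.

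Ppara, the receptor through which fatty acids induce the genes of their own oxidation, had lower signals in all 8 trained mice than in the untrained pair, and the difference did not pass the test. By 1449051_at it read 83.0, 1531.7, 806.6 and 1405.2 in trained plakoglobin (+/-) mice, 550.6, 86.0, 1718.2 and 1149.6 in trained wildtype mice, 2660.8 in the untrained plakoglobin (+/-) mouse and 2401.8 in the untrained wildtype mouse. Trained and untrained mice did not overlap, and 2 trained mice were under the floor of 104. With the floor in place of those 2 signals, the ratio of geometric means of trained over untrained mice was at most 0.243. The fitted difference of -2.06 (SE 1.20, 95% interval -4.70 to 0.582, limma adjusted p = 0.730) depends on the floor, and was -1.62 with the floor at the 25th percentile. It was -1.11 without trained wildtype replicate 2. The exact permutation test of all 8 trained mice against the untrained pair has no sex term, and its difference was -2.04. Its p was 0.0444, unadjusted and the smallest possible. The 3 lowest trained mice, at 83.0, 86.0 and 550.6, are the arrays of high GAPDH ratio, and the other 5 trained mice read 806.6 to 1718.2. Without the 3 arrays the difference was -1.20 (limma adjusted p = 0.0995). With the log2 ratio as a covariate it was -0.89, and the part of age and of the array ratio in it was not tested further.

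Ppara and Ppargc1a 1460336_at were the 2 of 12 tested member probe sets with every trained mouse under the 2 untrained ones, a pattern that 4.61% of all tested probe sets had. The opposite pattern was seen at 0 of 12 and at 4.63% of all. By genotype Ppara differed by 0.17 (SE 1.07, 95% interval -2.21 to 2.55), an interval too wide to place a difference of several fold. The mean was 956.6 ± 662.7 in trained plakoglobin (+/-) mice and 876.1 ± 710.4 in trained wildtype mice (SD, n = 4 each). Ppard, the related receptor, read 40.5, 89.0, 104.5 and 91.0 in trained plakoglobin (+/-) mice, 52.0, 38.0, 51.5 and 75.5 in trained wildtype mice, 84.0 in the untrained plakoglobin (+/-) mouse and 41.5 in the untrained wildtype mouse by 1425703_at. In 9 of 10 mice it was at or under the floor, so its values have no order and no fold is given.

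**Figure D2:**
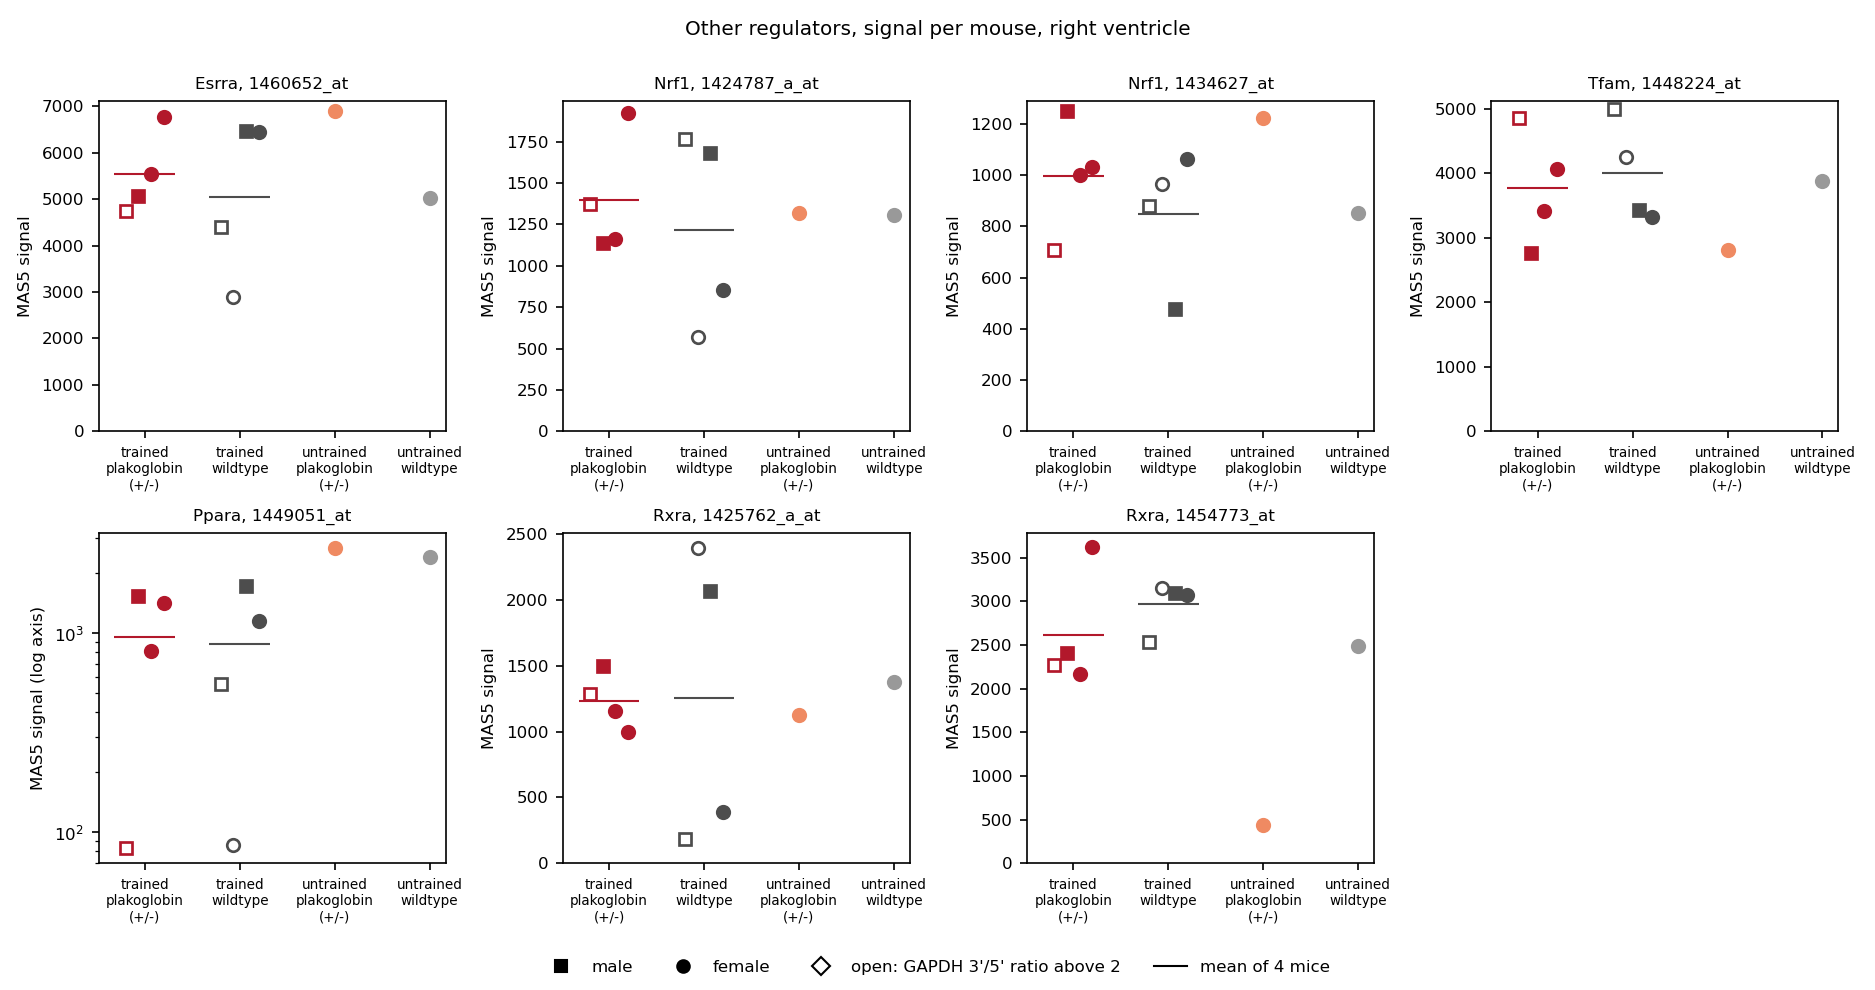
Signal in each of the 10 mice of the tested probe sets of Esrra, Nrf1, Tfam, Ppara (log axis) and Rxra, by group, with sex and the arrays of high GAPDH ratio marked and group means as lines. The untrained plakoglobin (+/-) mouse is at 436.6 for Rxra 1454773_at, against 2488.3 in the untrained wildtype mouse.

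Rxra, the partner with which PPARs bind DNA, had 2 probe sets with unlike patterns. By 1454773_at it read 2267.3, 2406.3, 2164.7 and 3623.4 in trained plakoglobin (+/-) mice, 2538.3, 3154.4, 3096.4 and 3072.9 in trained wildtype mice, 436.6 in the untrained plakoglobin (+/-) mouse and 2488.3 in the untrained wildtype mouse. The untrained plakoglobin (+/-) mouse stood below all others, and the untrained wildtype mouse lay within the range of the trained mice. The training difference was 1.50 (SE 0.454, 95% interval 0.503 to 2.50, limma adjusted p = 0.287), the one by training whose unadjusted p was under 0.05. It rests on 1 mouse: without the untrained plakoglobin (+/-) mouse it was 0.35, and without the untrained wildtype mouse it was 2.65 and passed (limma adjusted p = 0.0207). The genotype by training interaction of 2.30 (SE 0.475) rests on 1 untrained mouse per genotype and did not pass (limma unadjusted p = 0.00077, adjusted p = 0.857).

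The other Rxra probe set, 1425762_a_at, read 1283.7, 1497.2, 1157.6 and 996.6 in trained plakoglobin (+/-) mice, 183.5, 2395.8, 2063.7 and 387.5 in trained wildtype mice, 1124.6 in the untrained plakoglobin (+/-) mouse and 1379.7 in the untrained wildtype mouse. The untrained plakoglobin (+/-) mouse was not low here. The 4 trained wildtype mice spread from 183.5 to 2395.8, on both sides of all 4 trained plakoglobin (+/-) mice, with means of 1234 ± 211.3 in trained plakoglobin (+/-) mice and 1258 ± 1134 in trained wildtype mice (SD, n = 4 each). Differences by genotype were 0.66 (SE 0.762) for this probe set and -0.21 (SE 0.208) for 1454773_at (limma adjusted p = 1 for both).

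Tfam, the packaging and transcription factor of mitochondrial DNA, differed beyond its spread in no comparison. By 1448224_at it read 4849.6, 2762.8, 3423.4 and 4074.5 in trained plakoglobin (+/-) mice, 5004.1, 4250.0, 3425.4 and 3315.9 in trained wildtype mice, 2804.8 in the untrained plakoglobin (+/-) mouse and 3886.0 in the untrained wildtype mouse. The 3 arrays of high GAPDH ratio were the 3 highest, at 4250.0 to 5004.1, so this gene ran against Ppara and Esrra. The mean was 3778 ± 893.0 in trained plakoglobin (+/-) mice and 3999 ± 789.3 in trained wildtype mice (SD, n = 4 each), a difference of -0.09 (limma adjusted p = 1). By training the difference was 0.18 (SE 0.277, 95% interval -0.428 to 0.791, limma adjusted p = 0.929).

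**Figure D3:**
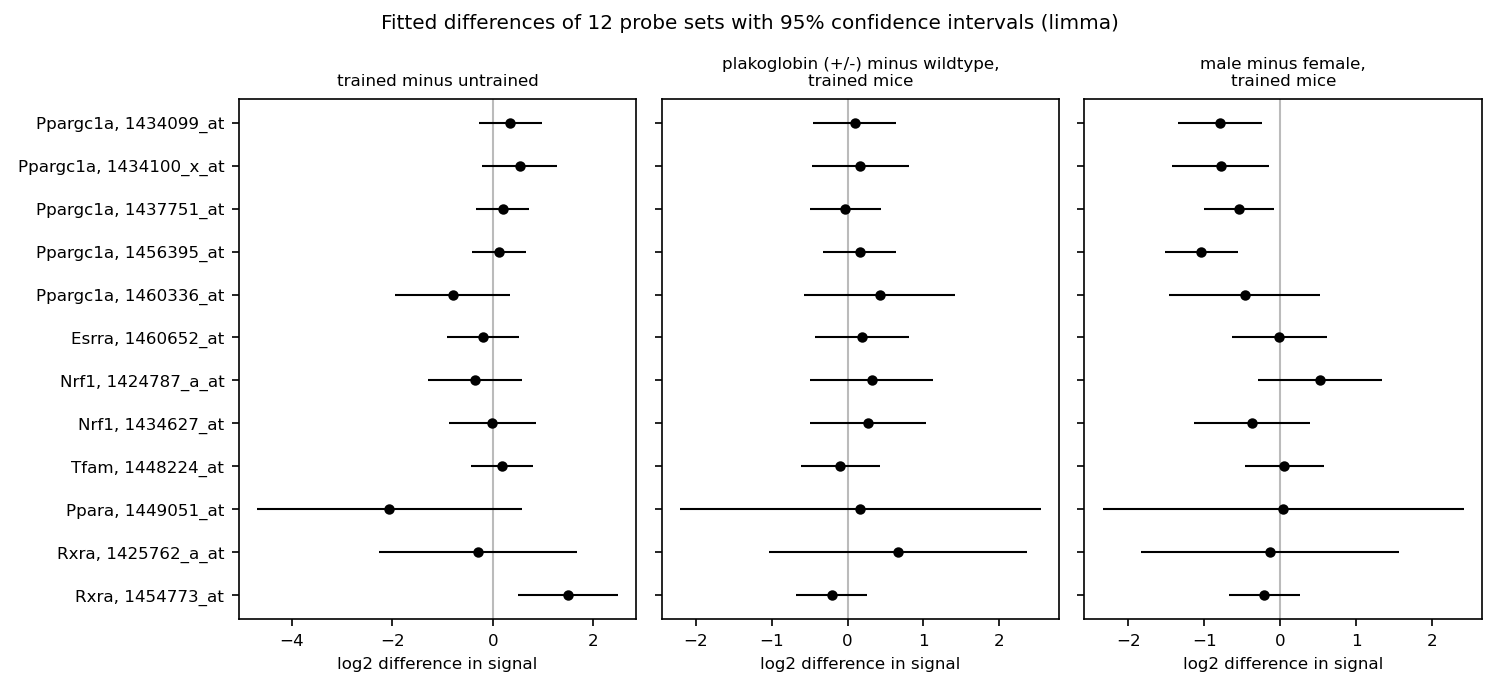
Log2 difference of each tested member probe set with its 95% interval, by training (trained minus untrained), by genotype (plakoglobin (+/-) minus wildtype, trained mice) and by sex (male minus female, trained mice). The training difference compares females only. The intervals of the 4 Ppargc1a probe sets other than 1460336_at lie below 0 by sex, and that of Rxra 1454773_at lies above 0 by training.

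The GAPDH ratio moved with several members. Among trained mice, the 3 arrays of high ratio read 83.0 to 550.6 for Ppara against 806.6 to 1718.2 on the other 5 arrays. With the 2 signals under the floor raised to it, the ratio of geometric means was at most 0.142. For Ppargc1a 1460336_at they averaged 1268 against 3313 ± 507.8 (ratio 0.380), and for Esrra 4008 against 6056 ± 723.7 (0.651). For Tfam they averaged 4701 against 3400 ± 466.2 (1.39). At these 4 of 12 probe sets the arrays did not overlap, 3 with the high-ratio arrays below and 1 with them above. Of all tested probe sets, 7.98% had the high-ratio arrays below all other trained arrays and 5.79% above. The high ratios fell on 1 trained plakoglobin (+/-) mouse and 2 trained wildtype mice, and on no untrained mouse.

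**Figure D4:**
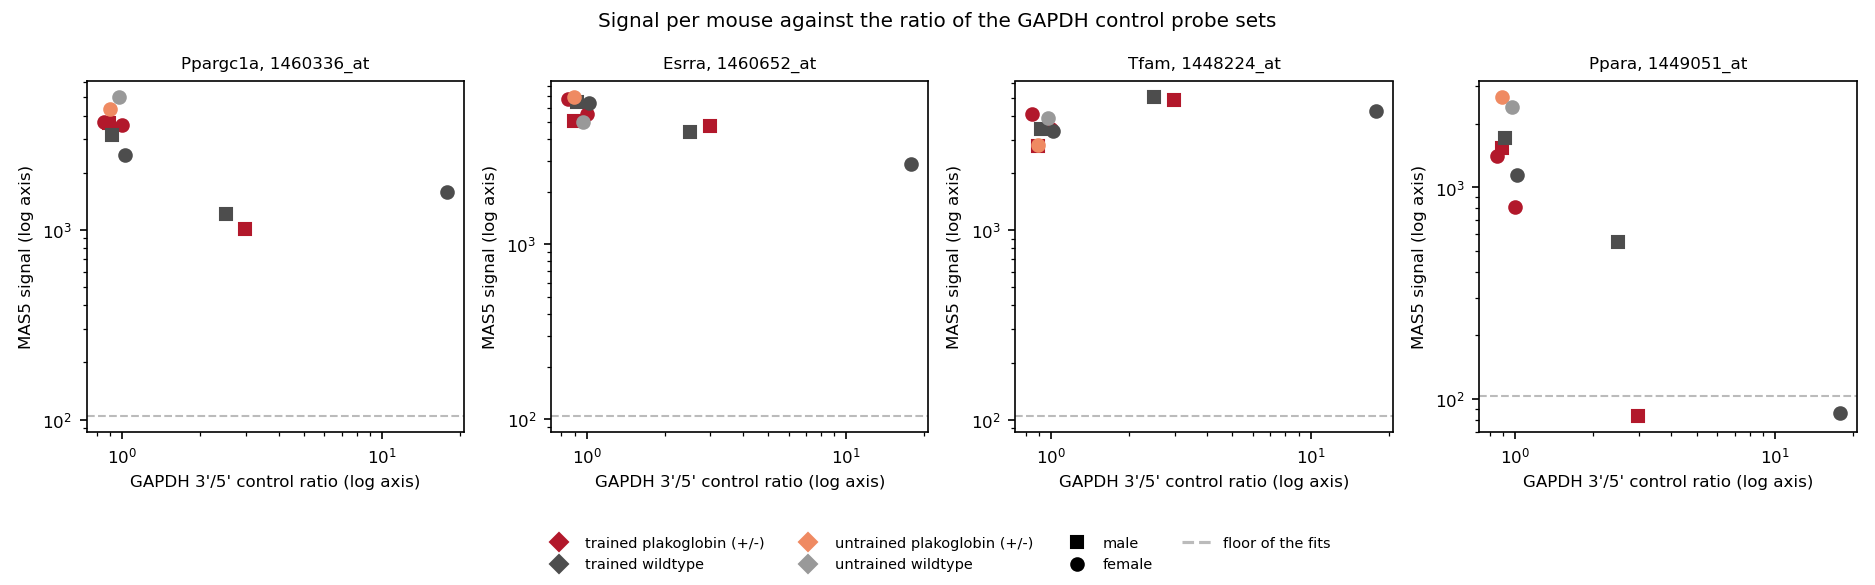
Signal of the 4 member probe sets just described (log axis) against the 3' to 5' GAPDH ratio of the array (log axis), 1 point per mouse. The 3 arrays with ratios of 2.50 to 17.8 have the lowest Ppara signals, 83.0 to 550.6, and the highest Tfam signals, 4250.0 to 5004.1.

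The genes whose log2 signal followed a member most closely over the 10 mice are given as a description. The mice share genotype, training, sex and array quality, so closeness here says nothing of shared control. Parp1 (r = 0.979), Il15ra (0.972) and Zbtb20 (0.971) were nearest to Ppargc1a 1437751_at, and over the 7 arrays of low GAPDH ratio r was 0.937, 0.908 and 0.850. Ndc1 (0.955), Cd151 (0.948) and Tysnd1 (0.938) were nearest to Esrra, with 0.802, 0.910 and 0.625 over the 7 arrays. Sh2b1 (0.968), 2310010J17Rik (0.926) and Syngr1 (0.918) were nearest to Nrf1 1424787_a_at, with 0.967, 0.823 and 0.809 over the 7 arrays. For Tfam they were Polr2e (0.952), Mettl21a (0.950) and Seh1l (0.949), with 0.897, 0.890 and 0.851. For Ppara, Pvr (0.978), Keap1 (0.970) and Tug1 (0.970) dropped to 0.798, 0.708 and 0.691 over the 7 arrays. For Rxra 1454773_at, Mapre2 (0.971), Zfp574 (0.959) and Lztfl1 (0.958) had 0.982, 0.972 and 0.966 over the 7 arrays. The untrained plakoglobin (+/-) mouse, far below the others at 436.6 for Rxra, is among these 7. By ranks (Spearman, 10 mice) the 3 Rxra values were only 0.758, 0.794 and 0.745, against 0.835 to 0.976 for the genes named for the other members. The part of that mouse in the Rxra values was not tested.

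Around the members, 7 lists of the pathway were read by the brightest probe set of each gene: 106 genes listed, 92 on the array and 90 tested. None of the 90 passed by training, genotype, sex or interaction, and 10, 3, 9 and 2 had an unadjusted p under 0.05 (limma). Of all tested probe sets, 8.68%, 2.01%, 8.82% and 3.2% had one, so the counts of the lists lie near these shares. Of 14 tested PPAR target genes, 13 were lower in trained mice and 1 higher, with a median of -0.45, beside a median of -0.00218 over all tested probe sets. Angptl4, which inhibits lipoprotein lipase, averaged 891.6 ± 457.4 in trained mice (SD, n = 8) against 2521 and 2349 in the 2 untrained mice. Its fitted difference, which like the others by training compares females only, was -1.88 (SE 0.529, limma adjusted p = 0.238). Pdk4, the kinase that restrains glucose oxidation, differed by -1.26 (SE 0.379, adjusted p = 0.285) and Ucp3, a mitochondrial carrier, by -1.13 (SE 0.337, adjusted p = 0.282), while Acot1, a thioesterase, had -0.745. Among these named genes, the 8 trained mice were under the 2 untrained mice for Angptl4, Ucp3 and Acot1, and 7 of 8 for Pdk4. Of all tested probe sets, 4.61% had all 8 trained mice below both untrained mice and 4.63% had all 8 above. A further probe set of Ucp3 passed at -3.38 (SE 0.449, limma adjusted p = 0.00633) and was the one list probe set to do so. The list is one whose lower values in trained mice were known when it was chosen.

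The targets of NRF and ERR factors, mostly respiratory chain subunits, were lower for 9 and higher for 4 of 13, with a median of -0.08. Sdhb differed by -0.38 (SE 0.152, limma adjusted p = 0.480) and Cox5b by -0.35 (SE 0.145, adjusted p = 0.503), each with all 8 trained mice below both untrained mice, Atp5a1 by -0.26 and Cox4i1 by -0.185. Of 14 genes of mitochondrial DNA transcription and replication, 10 were lower and 4 higher, with a median of -0.15. Among them Tfb1m, a mitochondrial RNA methyltransferase, had -0.68 (SE 0.282, adjusted p = 0.510) and Mgme1, a mitochondrial exonuclease, -0.46. Each had all 8 trained mice below both untrained mice. Mterf4 had -0.42 (SE 0.564), and Polg2, the accessory subunit of the mitochondrial DNA polymerase, had 0.41 (SE 0.326). With all probe sets of each gene, 10 were lower and 8 higher for this list, with a median of -0.06.

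Of 10 coactivators and corepressors, 3 were higher and 7 lower, with a median of -0.21. The corepressor Nrip1 had -1.69 (SE 0.658, limma adjusted p = 0.466) and the Mediator subunit Med1 0.70 (SE 0.284, adjusted p = 0.491), with all 8 trained mice above both untrained mice for Med1. The acetyltransferases Kat2a and Crebbp had -0.475 and -0.42. With all probe sets of each gene the median of this list was -0.09. Of 15 partner transcription factors, 9 were higher and 6 lower. Gabpb1, a GABP subunit, had -0.83 (SE 0.411), with all 8 trained mice below both untrained mice. The thyroid hormone receptor Thra had 0.62 (SE 0.247), with all 8 trained mice above both. Creb1, which binds cyclic AMP response elements, had 0.47 and Thrb, another thyroid hormone receptor, -0.36. Of 11 genes of AMPK and its upstream kinases, 5 were higher and 6 lower, with Camk4 at 0.945 (SE 0.596) and Camkk2 at -0.67 (SE 0.408), both calcium-dependent kinases, Mapk14 at -0.29 and the AMPK subunit Prkag1 at -0.20. All 8 trained mice had Camk4 signals of 679.1 to 2053, between 2403 in the untrained plakoglobin (+/-) mouse and 158 in the untrained wildtype mouse. Of 13 genes of mitochondrial import and dynamics, 6 were higher and 7 lower. Tomm40, the import pore, had -0.82 (SE 0.705). The import receptor Tomm20 had 0.37 (SE 0.257), with 7 of 8 trained mice above both untrained mice. The chaperone Hspd1 had -0.35 (SE 0.164), with all 8 trained mice below both untrained mice, and the fusion GTPase Opa1 -0.35 (SE 0.507). The medians of these last 3 lists were 0.07, -0.05 and -0.03.

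**Figure D5:**
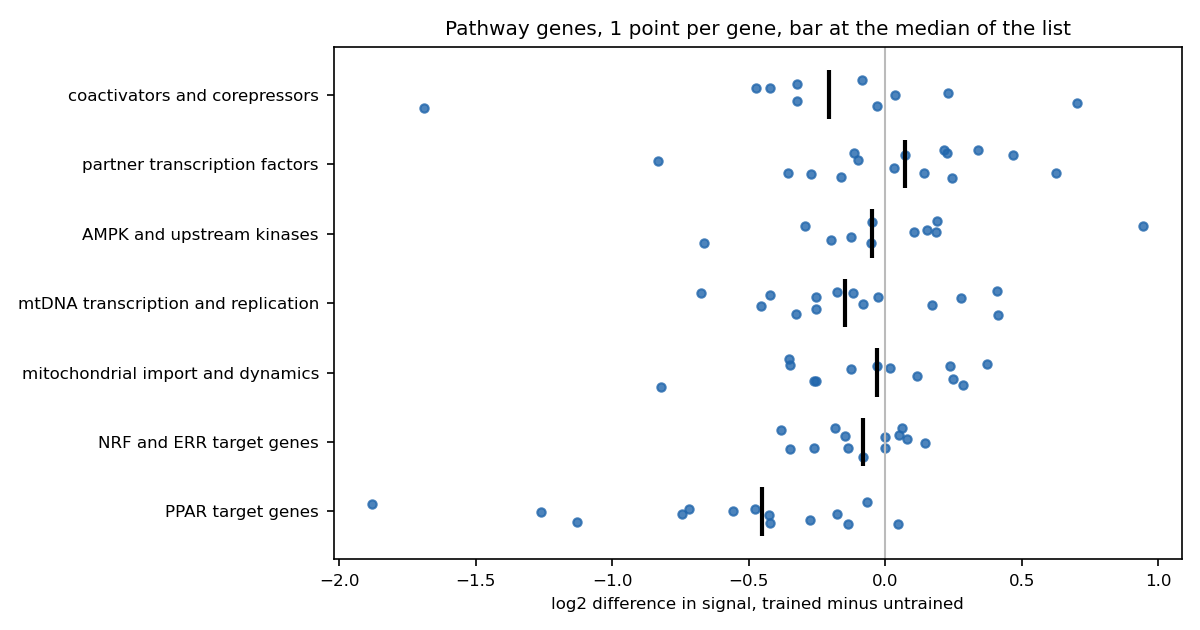
Fitted log2 difference of trained minus untrained mice for each tested gene of the 7 pathway lists, 1 point per gene, with the list medians marked. This difference compares females only. The PPAR targets have 13 of 14 points below 0 and a median of -0.45, and 0 of the 90 list genes passed.

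By genotype the list medians lay between -0.03 and 0.17. Sums of cell type markers overlapped between trained and untrained mice. The leukocyte sum was 17450 to 34970 in trained mice against 31850 to 32590 in untrained mice (5 of 6 markers lower), and the cardiomyocyte sum was 1051000 to 1379000 in trained mice against 1282000 to 1428000 in untrained mice (5 of 6 lower). The endothelial sum was 17780 to 23610 in trained mice against 21950 to 26180 in untrained mice (5 of 6 lower). The fibroblast sum was 74190 to 111700 in trained mice against 103000 to 108400 in untrained mice (5 of 6 lower). Of 3 tested smooth muscle markers, 2 were higher and 1 lower. None of these markers was called, none was at the floor on all 10 arrays, and their part in the list values was not tested.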

How the data were processed

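Right ventricular RNA of 10 mice was read on 10 arrays. The values deposited by the authors are probe set intensity on a linear scale, from MAS5 5.0 per the submitters' processing notes. The trimmed mean of each array (lowest and highest 2% left out) was 2501.3 to 2501.6, so arrays share 1 trimmed mean. Their medians were 897.8 to 1150. The lowest were 897.8 and 999.6 in trained wildtype replicates 2 and 1 and 899.4 in trained plakoglobin (+/-) replicate 1, the arrays of high GAPDH ratio. Signals at the floor made up 13% for trained wildtype replicate 2 and 12.6% for trained plakoglobin (+/-) replicate 1, against 7.96% to 11% on the other arrays. The deposited values carry no detection calls, and the number of arrays limits the precision. Groups came from the labels. Whether the mice of a group came from separate litters is unknown here, so p values measure the spread between these mice.

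Signals were raised to the 10th percentile of all values (104), log2 transformed, and 13576 probe sets at or above the 40th percentile of mean log2 signal were tested after 64 control probe sets were left out. In the array annotation 20393 probe sets had 1 symbol, 691 several, and 1606 were not listed. Models were fitted with limma 3.58.1 (lmFit, eBayes with trend) in R 4.3.3, all tests two-sided, with Benjamini-Hochberg adjustment over all tested probe sets and a threshold of 0.05. Training was fitted over 10 mice with genotype and sex, genotype and sex over the 8 trained mice, and the interaction over 10 mice. In the training fit the sex term takes up the trained males, so its differences come from the females and its spread from all mice. Exact permutation tests of single probe sets and fits on simulated data, which checked the scripts, ran beside them. A gene of a list was read by its brightest probe set. Promoters came from RefSeq (GRCm38.p6, a reference of another strain than 129SV).

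Every probe set of the members is named, with up to 4 genes per list of largest training difference, the 3 probe sets most like a member, and Jup. The Ucp3 probe set outside this rule was named after its value was seen. Members and lists were chosen with earlier results of these data known. As alternatives, the log2 signals were scaled by quantiles or by cyclic loess, the floor was moved to the 25th percentile or replaced by a pseudocount of 1, the filter was dropped or set at the 60th percentile, and eBayes was run without trend or with robust estimation. Others were leaving out the 3 arrays with a GAPDH ratio above 2, that ratio as a covariate, no sex term, females only, all mice in 1 fit, all probe sets of each gene, and each mouse left out. The permutation tests by sex and the genotype by sex term were added after seeing the data.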

Additional observations from a re-analysis of the deposited data

Results flagged for a closer look

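In 28 groups of 4 trained mice, 1 per member probe set and genotype, the distance of the highest or lowest mouse from the others was read on the log2 scale with Dixon's ratio, and 4 groups had a ratio above Dixon's 95% critical value, signals under the floor being used as deposited. Chance gives about 1 in 20 groups. Ppargc1a 1460336_at read 1010.6 in trained plakoglobin (+/-) replicate 1, against 3585.9 to 3678.9 in the other 3 mice of the group (ratio 0.980). This array has a GAPDH ratio of 2.98. Rxra 1454773_at read 2538.3 in trained wildtype replicate 1, against 3072.9 to 3154.4 in the others (ratio 0.880), and that array has a GAPDH ratio of 2.50. Nrf1 1420978_at read 124.0 in trained plakoglobin (+/-) replicate 3, against 177.5 to 178.0 (ratio 0.992). Ppard 1425703_at read 40.5 in trained plakoglobin (+/-) replicate 1, against 89.0 to 104.5 (ratio 0.831). The last 2 probe sets did not pass the filter. The Ppard ratio rests on signals under the floor of 104, which have no order, so this mouse is not shown to stand apart.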

How the results depend on the processing

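No paired analysis was possible because littermates cannot be matched from the labels. No member probe set passed under any alternative except Rxra 1454773_at by training without the untrained wildtype mouse, so with each mouse left out the count of members called by training was 0 to 1. Of 260 training values 14 turned, on 7 probe sets, and of 236 genotype values 22, on 8. Of 90 sex values of Ppargc1a 1 turned, and of 19 interaction values of Rxra 1454773_at 0. The causes were not tested. Many of these values could not turn. Filter and eBayes settings leave every fitted difference as it is, and leaving out a male or all males leaves every training difference as it is. By training, Nrf1 1434627_at was 0.01 with cyclic loess, Esrra 0.08 both without the arrays of high GAPDH ratio and with that ratio as a covariate, and without the sex term Ppargc1a 1434099_at, 1437751_at and 1456395_at were -0.05, -0.07 and -0.40. By genotype, Ppargc1a 1437751_at was 0.01 with quantile normalization; without the high-ratio arrays it was 0.05, Ppargc1a 1456395_at -0.07, Esrra -0.19 and Ppara -0.13; with the covariate Esrra was -0.08, Tfam 0.03 and Ppara -0.99. By sex, Ppargc1a 1460336_at was 0.15 without the high-ratio arrays. With each mouse left out in turn, training values ran from -0.37 to 0.08 for Esrra, -0.13 to 0.11 for Nrf1 1434627_at, -0.03 to 0.27 for Ppargc1a 1456395_at, -0.86 to 0.19 for Rxra 1425762_a_at and -0.01 to 0.37 for Tfam. Genotype values ran from -0.10 to 0.37 for Esrra, -0.82 to 1.24 for Ppara, -0.10 to 0.24, -0.11 to 0.34 and -0.18 to 0.14 for Ppargc1a 1434099_at, 1434100_x_at and 1437751_at, -0.14 to 1.29 for Rxra 1425762_a_at and -0.24 to 0.09 for Tfam.

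Over all probe sets, training called 85, and 225 without the high-ratio arrays, with 10 to 87 when 1 mouse was left out (10 without the untrained plakoglobin (+/-) mouse). Sex called 7, and 13 with quantile normalization, 15 with the higher floor, 2 with no filter, 11 with the stricter filter, 1 with eBayes without trend, 17 without the high-ratio arrays, 16 with the covariate and 1 to 12 with 1 mouse left out. The interaction called 0 (434 at an unadjusted p under 0.05), and 1 with quantile normalization, 66 with no filter, 1 without the high-ratio arrays and 0 to 1 with 1 mouse left out. With all probe sets of each gene, 1 list probe set was called by training, and the list medians lay between -0.42 and 0.03, with that of import and dynamics at 0.00476 against -0.0319. Training values rest on 2 untrained mice. Signals at or under the floor of 104 occurred in 2 mice for Ppara, 2 for Nrf1 1420978_at and 9 for Ppard, and in no mouse for the other 11 member probe sets.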

Other observations

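Some pathway genes outside the members are named here after their values were seen. Of 13 tested genes of mitochondrial import and dynamics, 8 were lower and 5 higher in trained males than in trained females, and 4 of the 13 had an unadjusted p under 0.05, all lower in males, where 8.82% of all tested probe sets had one in either direction. They were the fusion GTPases Mfn1 (-0.51, SE 0.221) and Mfn2 (-0.60, SE 0.226), the fission GTPase Dnm1l (-0.53, SE 0.176) and the chaperone Hspa9 (-0.38, SE 0.151). None passed (limma adjusted p between 0.509 and 0.556). In the same mice 6 of 6 cardiomyocyte markers were lower and 6 of 6 leukocyte markers higher in males, none called. Endothelial and fibroblast markers were each split, with 3 higher and 3 lower. Arrays of high GAPDH ratio were 2 of the 4 males but 1 of the 4 females. The part of these in the values was not tested. Camk4 differed between trained plakoglobin (+/-) and trained wildtype mice by 0.955 (SE 0.271, limma adjusted p = 1, not passed), and read 2403 in the untrained plakoglobin (+/-) mouse against 158 in the untrained wildtype mouse.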
